A study of Rattus norvegicus with 18 samples.

Results

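The 10 genes followed here carry a fatty acid into the cell and through its oxidation, and were measured through 6 weeks of femoral fracture healing. They were chosen by gene symbol: Cd36, Lpl, Fabp3 and Acsl1 for uptake and activation, Cpt1b and Cpt2 for the carnitine shuttle, and Acadvl, Acadl, Acadm and Hadha for beta-oxidation. All 10 were measured, by 20 of the 8740 probe sets tested, and the brightest probe set over the 18 arrays stands for each gene. RNA came from intact female Sprague-Dawley rats operated on at an age of 6 weeks (young), 26 weeks (adult) or 52 weeks (older). Surgery placed a steel rod in the marrow cavity of the left femur and was followed by a closed fracture of the mid-shaft. The bone was taken at 5 times between 0.4 week (3 days in the labels) and 6 weeks, and sham operated rats of each age without a fracture were the 0 time controls. Each array held the pooled RNA of 2 rats, from the middle part of the shaft with its callus, cortical bone and marrow. There was 1 array for each age at each time, so the 3 ages are the replicates of a time point. The p-values measure the spread left after age and time, in which differences between pools and unlike changes of the ages are mixed.

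Long-chain fatty acids reach a cell in lipoprotein triglyceride or bound to albumin. Lipoprotein lipase frees them at the vessel wall, a membrane transporter and a small binding protein take them in, and a ligase joins them to coenzyme A; the carnitine palmitoyltransferases then carry the acyl chain into the mitochondrion, where dehydrogenases selective for chain length and the trifunctional protein shorten it. Heart, red skeletal muscle and fat tissue are known for high levels of these genes, and osteoblasts and marrow cells also burn fatty acids.

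The regulators best known for these genes, PPAR with its partner RXR and the estrogen-related receptors, bind variants of the core site AGGTCA, so the start regions of the genes were read for it. RefSeq (GRCr8) start regions, each the 250 bases before the annotated start, were at hand for 7 of the 10 genes: Cd36, Fabp3, Acsl1, Cpt2, Acadvl, Acadm and Hadha. Shown are those of the gene that fell furthest, of a gene that fell and partly returned, and of the gene whose window held this core site, 5′ to 3′ on the gene's strand, with AGGTCA in capitals where it was found.
Fabp3, chr5:147935875-147936124, plus strand: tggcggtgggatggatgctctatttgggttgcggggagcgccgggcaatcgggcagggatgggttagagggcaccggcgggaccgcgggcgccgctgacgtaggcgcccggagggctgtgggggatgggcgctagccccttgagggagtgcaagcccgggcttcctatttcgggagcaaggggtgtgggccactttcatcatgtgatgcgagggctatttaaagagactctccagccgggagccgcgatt
Acadm, chr2:245542865-245543114, minus strand: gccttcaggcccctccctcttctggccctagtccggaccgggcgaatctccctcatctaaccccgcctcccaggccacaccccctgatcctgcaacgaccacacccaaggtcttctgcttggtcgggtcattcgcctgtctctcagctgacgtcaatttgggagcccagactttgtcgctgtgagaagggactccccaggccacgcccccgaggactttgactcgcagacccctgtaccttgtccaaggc
Acadvl, chr10:55236706-55236955, minus strand: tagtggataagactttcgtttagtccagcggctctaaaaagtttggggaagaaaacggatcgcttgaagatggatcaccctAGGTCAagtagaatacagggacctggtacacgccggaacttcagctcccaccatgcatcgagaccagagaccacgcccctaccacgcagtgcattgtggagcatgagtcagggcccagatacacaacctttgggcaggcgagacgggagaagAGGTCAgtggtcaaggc
AGGTCA, searched on both strands, lay in 1 of the 7 windows, that of Acadvl, which held 2 copies on the gene's strand, beginning at positions -169 and -17 counted from the base before the start as -1. Of all 27457 windows of this length in the table, 13.661% held it. Neither the repeat AGGTCANAGGTCA nor the extended site TCAAGGTCA, which both contain AGGTCA, lay in any of the 7 windows, and 0.055% and 0.368% of all windows held them. A match of letters describes the sequence and is no measure of binding.

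Signals are linear intensities scaled to an average of 500 on each array, and values under 20 were set to 20 before log2 was taken. They allow a gene to be compared between arrays, but not 1 probe set with another. The median signal of the 18 arrays lay between 149.4 and 187.7. The ratio of the 3′ to the 5′ probe set of Gapdh, a measure of RNA integrity, was 3.48 and 6.57 on the young arrays of 4 and 6 weeks and 1.15 to 1.83 on the other 16, so late results are also given without these 2 arrays. The same ratio for beta-actin was 1.82, 1.20 and 1.08 in the young, adult and older controls. It was 1.88, 2.08 and 1.70 at 0.4 week, and 2.06, 2.12 and 1.70 at 1 week. The part of RNA integrity in the early changes and in the differences between controls was not tested. Bone was represented, as Col1a1 had signals of 35960, 16366 and 3711 in the young, adult and older controls. Markers of skeletal muscle were bright as well: 28 of 33 listed genes were measured, and their summed signal ranged from 231150 to 458658 at 0 time, from 65457 to 76945.5 at 0.4 week, and from 204889 to 248888 at 6 weeks. In whole tissue, fewer cells of a type and less RNA per cell cannot be told apart.

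At 0.4 week after fracture, 9 of the 10 genes were lower than in the 0 time controls, by 1.72-fold (Hadha) to 9.37-fold (Fabp3), and none was higher, since all 10 log2 changes were below 0. Cd36 did not pass the test on its leading probe set. Among all 8740 probe sets, 17.1% were called lower and 14.1% higher at this time (limma with age as a block, Benjamini-Hochberg adjusted p below 0.05). The median log2 change of the 10 genes was -1.31, against -0.13 over all probe sets. For the same 9 genes, the 3 arrays of 0.4 week all lay below the 3 of 0 time, a pattern that 21.6% of all probe sets had. Counts of genes called lower were 8 at 1 week (20.4% of all probe sets), 7 at 2 weeks (10.3%), 2 at 4 weeks (1.77%), and 3 at 6 weeks (0.32%). An F test over the 5 later weeks called 9 genes, each with its largest change downward, against 13.1% of all probe sets. Without the adult or the older rats these counts were lower, at 4 genes each at 0.4 week, 4 and 2 at 1 week, 0 each at 2 and 4 weeks, and 0 and 1 in the F test. Calls over all 8740 probe sets shrank as well, from 1493 lower at 0.4 week with all ages. Without the adult rats 182 were lower at 0.4 week, 238 at 1 week, 0 at 2 and 4 weeks, and 13 in the F test. Without the older rats these numbers were 256, 129, 4, 0 and 75.

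**Figure D1:**
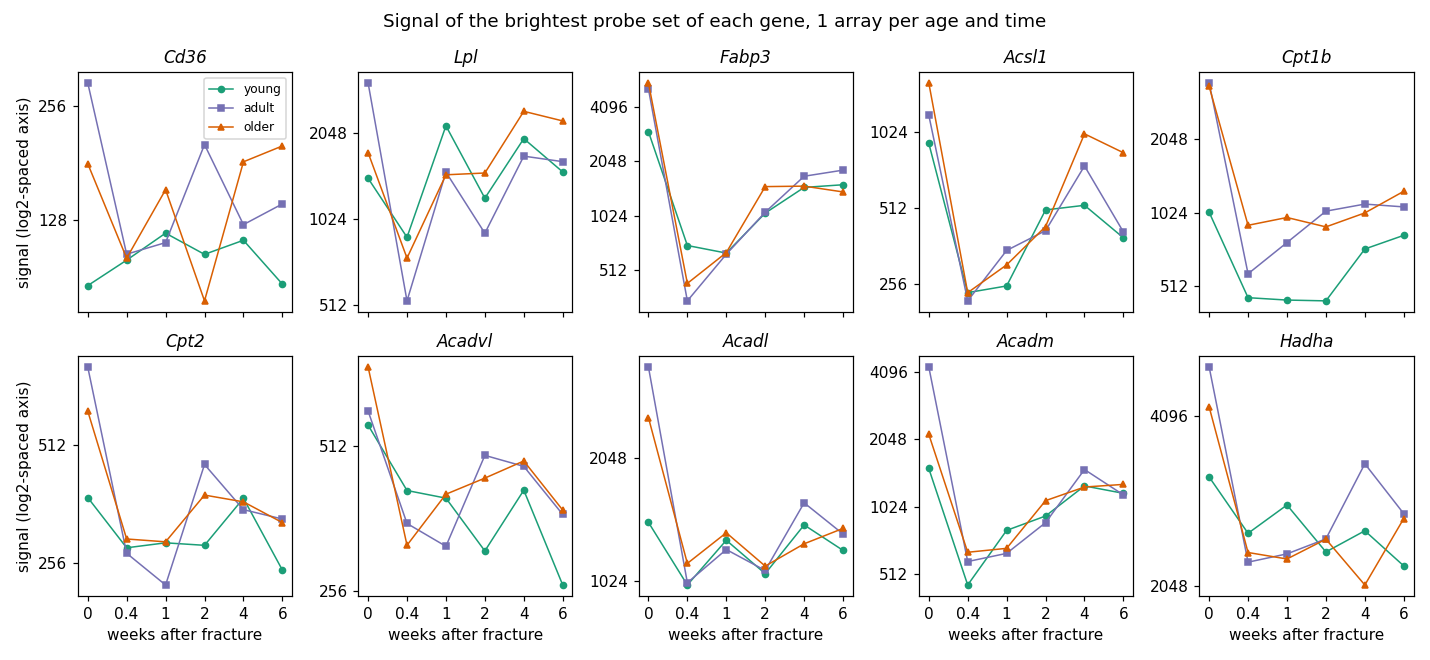
Signal of the brightest probe set of each of the 10 genes (log2-spaced vertical axis) at the 6 times from 0 time to 6 weeks, with 1 array per age and time and a line for each age. Except for Cd36 in young rats, every line drops between 0 and 0.4 week; Fabp3 ends at 1387 to 1832 against 2993.5 to 5579 at 0 time, while Lpl ends within the range of its controls.

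Fabp3, the fatty acid binding protein of heart and skeletal muscle, changed most. In young rats its signal was 2993.5, 701, 637, 1059.8, 1470.2 and 1521 at the 6 times in order, namely 0 time, then 0.4, 1 and 2 weeks, then 4 and 6 weeks. The adult series read 5164, 346, 627, 1071, 1695 and 1832, and the older one 5579, 432.5, 640.3, 1485, 1494 and 1387. All 15 arrays after fracture lay below the lowest control, that of the young rats. Signal at 0.4 week was 23.4% of control in young rats, 6.7% in adult rats and 7.8% in older rats, a log2 change of -3.23 ± 0.28 (SE, n = 3 ages; limma adjusted p = 6.65e-05). By 6 weeks the share of control was 50.8%, 35.5% and 24.9% in young, adult and older rats, and the log2 change was -1.49 ± 0.28 (adjusted p = 0.0384).

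Acsl1, the ligase that activates long-chain fatty acids with coenzyme A, fell by 2.40 on the log2 scale at 0.4 week (± 0.25 SE, n = 3; limma adjusted p = 1.76e-04), which is 5.26-fold lower. Its leading probe set gave 923, 236, 250.4, 502, 523 and 389 over the 6 times in young rats, 1193.5, 218.5, 346, 415, 749.7 and 410.1 in adult rats, and 1604, 235.5, 304, 431, 1006 and 846 in older rats. At 0.4 week the 3 ages were within a 1.08-fold range of each other, all far below their controls. The second probe set was nearly as bright, with a mean signal of 583 against 588, and also fell at 0.4 week (log2 change -2.18 ± 0.29; adjusted p = 0.000568).

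The 2 probe sets of Acsl1 parted at the later times. At 6 weeks the leading one read 389, 410.1 and 846 in young, adult and older rats, against 923, 1193.5 and 1604 in their 0 time controls, and was called lower (log2 change -1.24 ± 0.25, limma adjusted p = 0.0474). On the second, 6 weeks read 856, 625 and 929, against 679, 1170 and 962 at 0 time, so the young rats were above their control, and the test was not passed (log2 change -0.21 ± 0.29, adjusted p = 0.737). The difference between the 2 was not tested, and of its 4 probe sets only the leading one was called at 6 weeks.

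Lpl, lipoprotein lipase, was called lower at 0.4 week alone on its leading probe set. Its signals over the 6 times were 1417.5, 881, 2163, 1207.5, 1951 and 1492 in young rats, 3061, 528, 1489.5, 910.4, 1694.5 and 1621 in adult rats, and 1743, 745, 1458, 1479, 2432 and 2250.4 in older rats. Every 0.4 week array lay below every control, at a log2 change of -1.48 ± 0.31 (SE, n = 3; limma adjusted p = 0.00545). At 1 week the young rats already exceeded their control, and the change over the 3 ages was -0.23 (adjusted p = 0.604). By 6 weeks Lpl stood at 105.2% of control in young rats, 53.0% in adult rats and 129.1% in older rats. Both other probe sets of Lpl fell at 0.4 week, by 2.04 and 1.53 on the log2 scale, and were called. On the brighter of them, with a mean signal of 1439, all ages were still below their controls at 1 week. It read 1251, 998 and 954 in young, adult and older rats, against 1341, 2710 and 2132 at 0 time.

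Cd36, the fatty acid translocase of the cell surface, could not be read firmly from probe sets of its own. The leading one had a mean signal of 138, and its signals were 85.6, 100, 118, 104, 113 and 86.4 over the 6 times in young rats, 295, 104, 111, 202, 124 and 141 in adult rats, and 180.2, 101, 154, 78.0, 182 and 201 in older rats. The young rats stayed between 85.6 and 117.9 at every time, whereas adult and older rats were lower at 0.4 week than in their controls, so the ages differed in direction, and the log2 change of -0.71 ± 0.40 did not pass (SE, n = 3; limma adjusted p = 0.202). A further 5, brighter probe sets are annotated to Cd36 together with Cd36l1 and were not assigned to the gene. All 5 fell at 0.4 week, by 1.29 to 1.72 on the log2 scale, and were called. The brightest of them read 1640.2, 769, 925, 1386, 2301 and 2407 in young rats, 2498, 797, 801, 1129, 1533 and 1678 in adult rats, and 2220.2, 823, 1024, 744, 1728 and 1879.8 in older rats, with every 0.4 week array below every control.

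**Figure D2:**
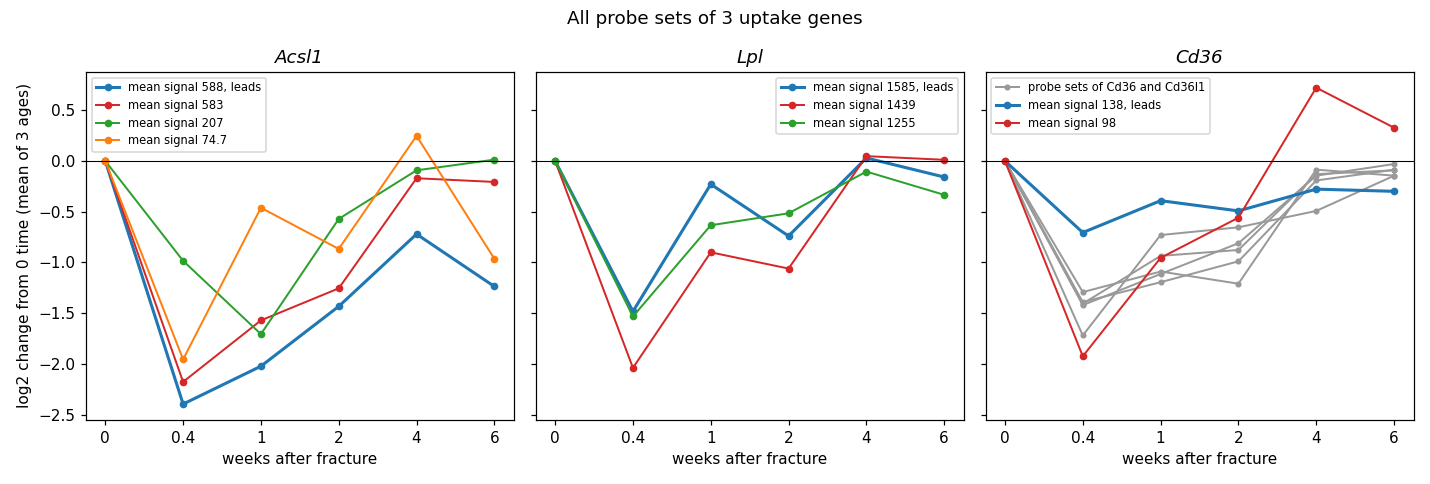
Mean log2 change from 0 time (vertical axis, mean of the 3 ages) at each time after fracture for every probe set of Acsl1, Lpl and Cd36, with the leading one drawn thick and the probe sets shared by Cd36 and Cd36l1 in grey. The 2 bright probe sets of Acsl1 fall together at 0.4 week (-2.40 and -2.18) and end apart at 6 weeks (-1.24 and -0.21), and the 5 shared probe sets fall by 1.29 to 1.72.

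Of the carnitine shuttle, Cpt1b, the muscle form of the outer membrane transferase and the gate of the pathway, fell 3.70-fold at 0.4 week (log2 change -1.89 ± 0.25 SE, n = 3; limma adjusted p = 5.21e-04). Young rats had signals of 1028, 459, 448, 445, 726 and 826 over the 6 times, adult rats 3488, 575, 772, 1038, 1109.7 and 1081, and older rats 3374, 908, 978, 895, 1021 and 1252. The young control was far below the other 2 controls, and was exceeded by the adult arrays from 2 weeks on and by the older array of 6 weeks. At 6 weeks the log2 change was -1.15 ± 0.25 (adjusted p = 0.0549), just outside the threshold, and the arrays of 6 weeks overlapped the controls. The second probe set of Cpt1b fell by 0.99 at 0.4 week (adjusted p = 0.00177) and had a change of -0.65 at 6 weeks (adjusted p = 0.0789), which did not pass.

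Cpt2, the inner membrane transferase that returns the acyl chain to coenzyme A, was a dimmer probe set. It read 377, 280.3, 289, 284, 375 and 246 in young rats, 812.5, 271, 225, 458, 351 and 332 in adult rats, and 627, 295, 290.3, 382, 367 and 325 in older rats. At 0.4 week all 3 arrays lay between 271 and 295, below all 3 controls (log2 change -1.03 ± 0.22 SE, n = 3; limma adjusted p = 0.00636). At 6 weeks they lay between 246 and 332, again below every control, but the change of -0.95 ± 0.22 did not pass (adjusted p = 0.0656).

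The dehydrogenases that open each round of beta-oxidation fell by unlike amounts. Acadm, which acts on medium-chain acyl groups, fell most, by 2.12 ± 0.28 on the log2 scale at 0.4 week (SE, n = 3; limma adjusted p = 4.99e-04). Its signals were 1517, 458, 803, 931, 1268 and 1175 over the 6 times in young rats, 4307, 583, 634, 869.8, 1501 and 1157 in adult rats, and 2155, 641.5, 668, 1090.1, 1254 and 1288 in older rats. All 15 arrays after fracture were below the young control, the lowest of the 3, and the adult control was by far the highest. At 6 weeks the ages were within 1.11-fold of each other, at 1157 to 1288, and the log2 change was -1.0 ± 0.28 (adjusted p = 0.0934).

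Acadl, which acts on long-chain acyl groups, fell by 1.15 ± 0.21 at 0.4 week on the log2 scale (SE, n = 3; limma adjusted p = 0.00271). It read 1427, 1004, 1290.3, 1069.7, 1406 and 1219 over the 6 times in young rats, 3413, 1016.5, 1225, 1089, 1592 and 1336 in adult rats, and 2569, 1133, 1346, 1116, 1265 and 1379 in older rats. At 0.4 week the level was 70.3% of control in young rats, 29.8% in adult rats and 44.1% in older rats, with every array below every control. At 6 weeks it was 85.4%, 39.1% and 53.7% in young, adult and older rats. The change at 6 weeks was -0.83 ± 0.21 (adjusted p = 0.0786). The other probe set of Acadl had a mean signal of 19.0, under the floor of 20, and is not described further.

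Acadvl, the very long-chain dehydrogenase of the inner membrane, fell less, by 0.82 ± 0.19 on the log2 scale at 0.4 week (SE, n = 3; limma adjusted p = 0.00779), and was the only dehydrogenase called at 6 weeks (-0.94 ± 0.19, adjusted p = 0.0452). Signals were 567, 414, 399, 309.6, 414.5 and 263 over the 6 times in young rats, 606.5, 353, 317, 490.0, 465 and 369 in adult rats, and 749.5, 318, 407, 439, 477 and 377 in older rats. Every array after fracture lay below the lowest control, and the lowest of all was the young array of 6 weeks, 1 of the 2 with a high Gapdh ratio.

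Hadha, the alpha subunit of the mitochondrial trifunctional protein, fell least of the 9 genes, by 0.78 ± 0.18 on the log2 scale at 0.4 week (SE, n = 3; limma adjusted p = 0.00839). Its signals over the 6 times were 3195.5, 2538, 2849, 2351, 2564 and 2221 in young rats, 5012, 2255, 2333, 2480.5, 3373 and 2749.8 in adult rats, and 4256, 2346, 2285, 2477, 2054 and 2696 in older rats. The 3 arrays of 6 weeks, at 2221 to 2749.8, were below the 3 controls, at 3195.5 to 5012, but the change of -0.68 ± 0.18 was not called (adjusted p = 0.0847). The other bright probe set of Hadha fell by 0.88 at 0.4 week and was called, and a dimmer one, with a mean signal of 545, had a change of -0.35 (adjusted p = 0.184).

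**Figure D3:**
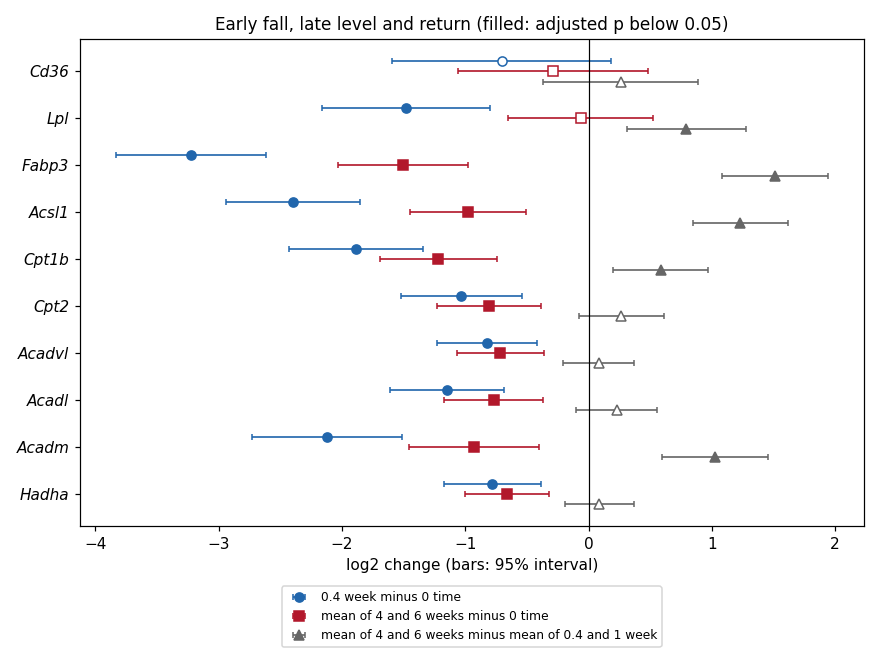
Log2 change of the leading probe set of each gene (horizontal axis, with its 95% interval from the fit over 18 arrays) for 0.4 week minus 0 time, for the mean of 4 and 6 weeks minus 0 time, and for the mean of 4 and 6 weeks minus that of 0.4 and 1 week. Filled marks passed the adjusted threshold: 9 genes at 0.4 week, 8 late against 0 time, and 5 late against early.

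At 6 weeks, 3 genes were called lower than at 0 time, Fabp3, Acsl1 and Acadvl, against 0.32% of all probe sets lower and 0.561% higher. Arrays of 6 weeks lay wholly below those of 0 time in 7 of the 10 genes, all but Cd36, Lpl and Cpt1b, against 6.5% of all probe sets. The count of 3 depended on the arrays used. Without the young arrays of 4 and 6 weeks, only Cpt1b was called at 6 weeks (log2 change -1.35, limma adjusted p = 0.0421). Without the young rats 8 genes were called, and without the adult or the older rats none was, although 8 and 7 genes had an unadjusted p below 0.05. The share of all probe sets below an unadjusted 0.05 was not counted, here or for the later counts of this kind. Calls over all 8740 probe sets moved too, from 28 lower with all arrays to 635 without the young rats. They were 46 without the young arrays of 4 and 6 weeks, and 0 without the adult or the older rats.

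Over 4 and 6 weeks together, 8 genes were lower than in the 0 time controls and none was higher, where 3.56% of all probe sets were lower and 5.49% higher (limma adjusted p below 0.05). The log2 changes were -1.50 for Fabp3 (adjusted p = 0.00917), -1.22 for Cpt1b (0.013), -0.98 for Acsl1 (0.0237), and between -0.93 and -0.67 for Acadm, Cpt2, Acadl, Acadvl and Hadha (0.0262 to 0.0381). The median over the 10 genes was -0.79, against -0.056 over all probe sets. Lpl, at -0.065 (95% interval -0.66 to 0.53), and Cd36, at -0.29 (-1.06 to 0.48), did not pass. The 5 probe sets shared by Cd36 and Cd36l1 had changes of -0.32 to -0.09, none of them called. The second probe set of Acsl1 read 1004 and 856 at 4 and 6 weeks in young rats, above their control of 679. On it adult rats read 508.5 and 625 against 1170, and older rats 1049 and 929 against 962. Without the young arrays of 4 and 6 weeks, 4 genes were still called, Fabp3, Cpt1b, Cpt2 and Acadl, and without the adult or the older rats none was, although 8 and 7 genes had an unadjusted p below 0.05. Over all probe sets 309 were lower without these young arrays, against 311 with all arrays, and 0 without the adult or the older rats.

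The return from the early low was measured without the controls, as the mean of 4 and 6 weeks minus that of 0.4 and 1 week. In all, 5 genes rose: Fabp3 by 2.85-fold (log2 change 1.51, limma adjusted p = 4.99e-04), Acsl1 by 2.35-fold (1.23, 8.55e-04), Acadm by 2.04-fold (1.03, 0.00403), Lpl by 1.73-fold (0.79, 0.0246), and Cpt1b by 1.50-fold (0.58, 0.0343). Among all probe sets 13% rose and 10.3% fell between these times, and the median change was 0.43 for the 10 genes and 0.065 for all probe sets. For the 4 called genes that had fallen least at 0.4 week no rise was called, with changes of 0.087 for Hadha and 0.082 for Acadvl, both below 0 with median scaling, 0.23 for Acadl and 0.27 for Cpt2. The 5 shared probe sets of Cd36 and Cd36l1 all rose, by 0.91 to 1.18, and were called. Without the young arrays of 4 and 6 weeks, Fabp3, Acsl1 and Acadm were called, and without the adult or older rats 3 and 2 genes. Over all probe sets 594, 285 and 551 rose in these settings in the same order, against 1140 with all arrays.

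Age was read first in the controls. The young control was the lowest of the 3 for all 10 genes, a place it held in 38.5% of the 4108 probe sets whose signal averaged 200 or more, and the adult control was the highest for 7. The young control was also the lowest for 26 of the 28 muscle markers, with a mean log2 signal of 11.6 in the young control, 12.8 in the adult control and 12.4 in the older control. For bone markers the young control was instead the highest and the older control the lowest. Their summed signal over 10 genes was 142083, 60829.9 and 30858 in the young, adult and older controls. The part of either in the order of the 10 genes was not tested. The highest age exceeded the lowest by a median of 2.16-fold over the 10 genes at 0 time and 1.21-fold at 0.4 week, against 1.76-fold and 1.29-fold for those brighter probe sets. With 1 control array per age, the spread between pools of 1 age is unknown.

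After fracture, no gene differed between older and young rats at limma's adjusted threshold, and 1 over all later weeks and 2 over 4 and 6 weeks had an unadjusted p below 0.05. Over all 5 later weeks the log2 differences, older minus young, ran from -0.079 (Hadha) to 0.84 (Cpt1b), and 0% of all probe sets were called in either direction. Cpt1b was higher in older than in young rats at each of the 5 later weeks, by a difference of 0.84 ± 0.14 (SE, 95% interval 0.52 to 1.17, limma adjusted p = 0.13). It was called (limma adjusted p = 0.0293) when only the 4108 brighter probe sets were tested, of which 34 were called lower and 28 higher in older rats. The second probe set of Cpt1b was also higher in older rats at each week, but by less. It read 860, 715, 921, 857 and 922 in older rats, against 695, 556, 633, 727 and 911 in young rats. Over 4 and 6 weeks alone, where 0.149% of all probe sets were called, the largest differences were 1.03 ± 0.23 for Acsl1 (95% interval 0.44 to 1.63, adjusted p = 0.157) and 0.95 ± 0.47 for Cd36 (-0.26 to 2.16, adjusted p = 0.465), both set against the 2 young arrays with a high Gapdh ratio. The second probe set of Acsl1, nearly as bright as the leading one, differed by 0.091 ± 0.19 (adjusted p = 0.967), and the brightest probe set shared by Cd36 and Cd36l1 by -0.38 ± 0.26 (adjusted p = 0.614). Set against the own control of each age, the drop was deeper in older than in young rats for Acadl, by -0.78 ± 0.16 (limma adjusted p = 0.0226). Acadl was the only gene called, where 3.02% of all probe sets were called lower. It passed in only 2 of 8 alternative settings, quantile normalization and no intensity trend, and not in the other 6. Among those 6, the next brightest and the mean of all probe sets drew on an Acadl probe set averaging 19.0, under the floor of 20. The own-control differences of the other 9 genes were also below 0, at -0.96 to -0.22, and all 10 share the low young control.

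Other genes of fatty acid handling were taken from a list of 113, of which 80 were measured. At 0.4 week 21 of the 80 were lower, 7 were higher and 52 did not pass, with a median log2 change of -0.42, where 17.1% of all probe sets were lower and 14.1% higher at a median of -0.13. In the list for mitochondrial beta-oxidation 9 of 18 genes fell and 1 rose. Acaa2, the thiolase that ends each round, changed by -1.62 (limma adjusted p = 0.00459), Eci1, an enoyl-CoA isomerase, by -1.25 (1.76e-04), and Echs1, the short-chain enoyl-CoA hydratase, by -1.13 (0.00199). Ivd, the isovaleryl-CoA dehydrogenase, is in the list though its substrate comes from leucine, and changed by -1.23 (0.00184). Beside Cpt1b and Cpt2, 4 other genes of the carnitine shuttle were measured, of which 1 fell and 1 rose. Slc25a20, the carnitine-acylcarnitine carrier, fell by 0.93 (0.00173), and Crot, the peroxisomal carnitine octanoyltransferase, which is named outside the rule, rose by 0.75 (0.0168). Cpt1a, the liver form of the outer membrane transferase, also outside the rule, had a change of 0.56 (0.0989) that did not pass.

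Of 21 other genes of uptake and activation, 2 were lower and 3 higher at 0.4 week, counts that are under or near the shares of all probe sets, 17.1% lower and 14.1% higher. Fabp5, the epidermal fatty acid binding protein, rose 10.2-fold (log2 change 3.35 ± 0.28 SE, n = 3; limma adjusted p = 6.54e-05), while its relative Fabp3 fell 9.37-fold. Fabp5 signals over the 6 times were 707, 3872.5, 1993.5, 1535, 956 and 632 in young rats, 300.2, 5293, 1882, 1756, 777 and 998 in adult rats, and 416, 4551, 2259.9, 1519, 1122 and 862 in older rats, so that every 0.4 week array was above every control. Lipa, the lysosomal acid lipase, rose by 0.94 at 0.4 week and by 1.08 at 6 weeks (adjusted p = 0.00923), the only 1 of the 80 genes called at 6 weeks, when 24 had an unadjusted p below 0.05. Lipe, the hormone-sensitive lipase, fell by 1.20 at 0.4 week, and Got2, the mitochondrial aspartate aminotransferase, by 0.69.

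Of 15 peroxisomal genes 2 fell at 0.4 week, a smaller share than the 17.1% of all probe sets: Cat, catalase, by 2.16 on the log2 scale (limma adjusted p = 0.00294) and Ech1, a dienoyl-CoA isomerase, by 1.17 (0.0023). Of 22 regulators 7 fell and 2 rose, against 17.1% and 14.1% of all probe sets; among the falls were Rxrg, a retinoid X receptor (-1.90), Pdk2, a kinase that restrains pyruvate dehydrogenase (-1.55), Esrra, the estrogen-related receptor alpha (-1.15), and Ucp2, an uncoupling protein (-0.93). Over 4 and 6 weeks together, 7 of the 80 genes were lower than at 0 time and 6 higher, against 3.56% and 5.49% of all probe sets. In the list for mitochondrial beta-oxidation 4 of 18 were lower and none higher. Chosen after their values were seen, they were Hadhb, the beta subunit of the trifunctional protein (-0.75), Etfdh, which passes the electrons on to ubiquinone (-0.60), Eci1 (-0.56) and Acads, the short-chain dehydrogenase (-0.55).

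At 0.4 week 21 of 28 skeletal muscle markers were lower and 2 higher, against 17.1% and 14.1% of all probe sets, with a median log2 change of -2.30. Ckm, the muscle creatine kinase, read 9304, 7914 and 8011 in young, adult and older rats at 0.4 week, against 30181.5, 58392 and 49819.7 at 0 time, and Acta1 and Tpm1 were also lower at every age. Over 4 and 6 weeks no muscle marker was called against 0 time by limma, though 14 had an unadjusted p below 0.05, and the median log2 change was -0.79 for the 10 genes and -0.66 for the muscle markers. At 6 weeks the medians were -0.95 for the 10 genes and -0.50 for the muscle markers, of which limma called none, with 5 below an unadjusted 0.05. The difference between the 2 lists was not tested, nor was the part of muscle in the changes of the 10 genes. Over the 18 arrays each gene's log2 signal had a Pearson r of 0.54 (Cd36) to 0.88 (Fabp3) with the mean of the muscle markers, and the 45 pairs among the 10 genes had r of 0.36 to 0.92, as a description over arrays that share time and age.

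**Figure D4:**
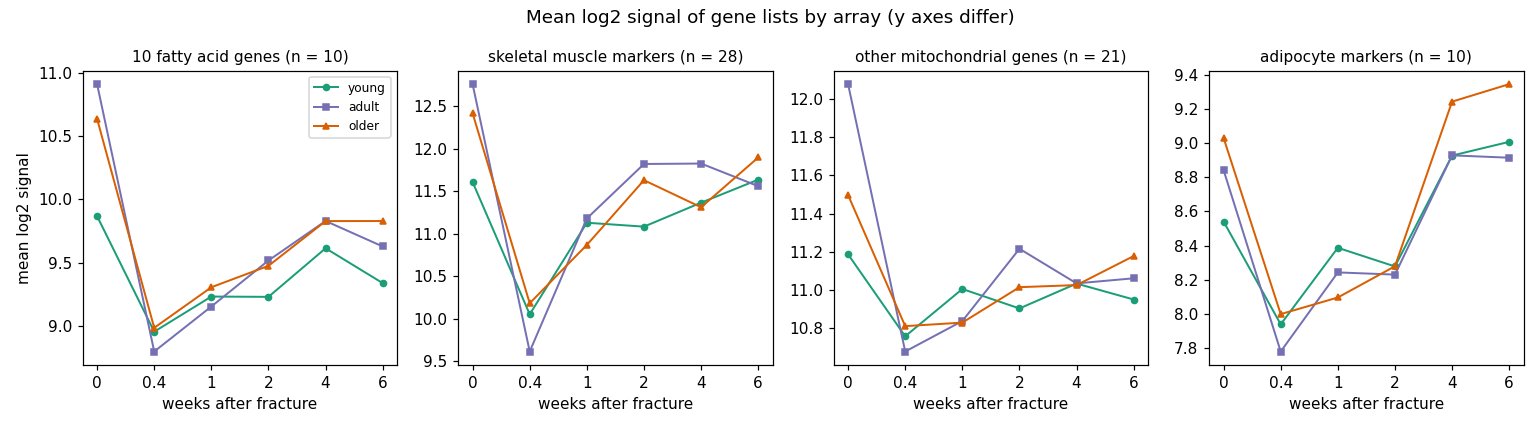
Mean log2 signal (vertical axis, with its own range in each panel) of the 10 genes, of 28 skeletal muscle markers, of 21 other mitochondrial genes, and of 10 adipocyte markers, which include Cd36 and Lpl, by array over the 6 times, with a line for each age. All 4 drop at 0.4 week; at 6 weeks the 10 genes, the muscle markers and the mitochondrial genes are below their adult and older controls, and the adipocyte markers are above theirs.

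Other mitochondrial genes, of the respiratory chain, citric acid cycle and carriers, were measured in 21 of 34 cases. At 0.4 week 11 were lower and 1 higher (median log2 change -0.84), against 17.1% and 14.1% of all probe sets. Over 4 and 6 weeks 6 were lower and 1 higher (median -0.61), against 3.56% and 5.49%. Of 10 measured adipocyte markers, Lpl and Cd36 among them, 4 were lower at 0.4 week, against 17.1% of all probe sets. Between the early and the late weeks 7 of the 10 rose, against 13% of all probe sets. Their summed signal ranged from 8994 to 13920.5 at 0 time, from 5223 to 6569 at 0.4 week, and from 11311 to 13212 at 6 weeks. Plin1, the coat protein of fat droplets, named after its values were seen, had a mean signal of 15.8, under the floor of 20. Cfd, adipsin, read 2909, 3060.2 and 2756 in young, adult and older rats at 6 weeks, against 1601, 1124 and 1554 at 0 time. Lep, leptin, the brightest of the 10, read 3043, 3096 and 2860 at 6 weeks, against 2909, 2503 and 5517.5. Over 4 and 6 weeks limma called Cfd higher than at 0 time, and Fabp4 and Pparg, named after their values were seen. Lep and Slc2a4, the latter also named afterwards, had log2 changes of -0.24 and -0.96 that did not pass. The part of the mitochondrial genes and the adipocyte markers in the changes of the 10 genes was not tested.

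Markers of further cell types in the tissue were counted as well, where 17.1% of all probe sets were lower and 14.1% higher at 0.4 week. Of 11 endothelial markers 2 were lower and 1 higher at 0.4 week, with a median log2 change of -0.067. Among the 3 brightest, Icam1 was called higher (log2 change 1.24, limma adjusted p = 0.015) and Vcam1 lower (-0.95, 0.00231). Pecam1 was not called, and read 430.1, 391 and 430.3 in young, adult and older rats, against 370.5, 383 and 347 at 0 time. Of 9 macrophage markers 4 were higher and 1, Lpl itself, was lower. All 7 erythroid markers were lower at 0.4 week, with a median log2 change of -3.23, and at 6 weeks limma called none, with 1 below an unadjusted 0.05. Of 10 bone markers 6 were higher and 1 lower at 0.4 week (median log2 change 1.55), and of 7 cartilage markers 3 were higher and none lower (median 1.59). The part of each in the changes of the 10 genes was not tested.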

How the data were processed

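RNA was measured on 18 Affymetrix rat U34 arrays (the A array of the set), 1 for each of 3 ages and 6 times, with 2 rats pooled per array. The authors computed the deposited intensity values with Microarray Suite 5.0, as the methods state, from perfect match and mismatch probes, and brought every array to the same average of 500; the trimmed means, checked on the values, were 500.7 to 500.9. Mismatch subtraction leaves dim signals noisy, and 10.6% to 18.0% of the values per array lay under the floor of 20. Detection calls and the other arrays of the study were not analysed here, and no replicate array of 1 age and time was used.

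Of 8799 probe sets, 59 manufacturer controls were left out and 8740 tested. By the platform annotation, 7006 had 1 gene symbol, 308 several and 1426 none; 6994 of 7018 gene identifiers were found in the RefSeq gene table. The members and lists were chosen with earlier results of these data known. Groups and age classes came from the labels, and the ages in weeks from the methods. Values were raised to 20, taken to log2 and fitted with limma 3.58.1 in R 4.3.3 (lmFit, eBayes with an intensity trend), with week and age as terms over all 18 arrays (10 residual degrees of freedom), week and age over the 15 later arrays (8), week with an age term for each phase over the 12 arrays of 1 to 6 weeks (4), and an interaction of age with later weeks (8). Adjusted p-values are Benjamini-Hochberg over all 8740 probe sets, with a threshold of 0.05, and the fits were tested on simulated data. Intervals come from the residual spread, and the number of arrays limits their precision.

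Named genes were all 10 members; per pathway list up to 4 genes called at 0.4 or 6 weeks by size of change, where signal averaged 200 or more; the 3 brightest genes of each marker list; and the 5 genes most like the members and most like Fabp3 by Pearson r. Genes named outside this rule are said to be. Alternatives were a floor of 1, an offset of 50, median scaling, quantile normalization, no intensity trend, a minimum mean signal of 200, no age term, age as a linear term, no week term, each age left out, the mean of all probe sets of a gene, and the methods' t-test; the next brightest probe set and the loss of the young 4- and 6-week arrays were added after seeing the data. Start regions and their coordinates are those of RefSeq on GRCr8.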

Additional observations from a re-analysis of the deposited data

Results flagged for a closer look

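Acadl was the only 1 of the 10 genes whose change from the own 0 time control differed between older and young rats by a test of the difference itself, at -0.78 on the log2 scale, older minus young (limma adjusted p = 0.0226). It passed with quantile normalization and without the intensity trend, and did not pass in the other 6 alternatives run for it. Of these, the next brightest and the mean of all probe sets drew on an Acadl probe set averaging 19.0, under the floor of 20. On the leading probe set, signals after fracture were 1116 to 1379 in older rats and 1004 to 1406 in young rats. The arrays after fracture thus overlapped between the ages, and the 2 controls were 2569 in older rats and 1427 in young rats. With 1 control array per age, the spread between pools of controls cannot be told apart from the age.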

How the results depend on the processing

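Counts of the 10 genes called lower depended most on which ages were used. Leaving out 1 age at a time gave 4 to 9 genes at 0.4 week, 2 to 8 at 1 week, 0 to 8 at 2 weeks, 0 to 5 at 4 weeks, 0 to 8 at 6 weeks, 0 to 8 for 4 and 6 weeks against 0 time, 0 to 7 in the test over all weeks, and 2 to 4 genes higher late against early. The low ends came without the adult or the older rats, and the cause was not tested. Over all 8740 probe sets the number called lower ran from 182 to 1689 at 0.4 week, 129 to 1847 at 1 week and 0 to 1534 at 2 weeks. It ran from 0 to 449 at 4 weeks, 0 to 635 at 6 weeks, and 0 to 847 for 4 and 6 weeks against 0 time. With a mean signal of at least 200, 5 genes were lower at 4 weeks and 7 at 6 weeks, and 1 was higher in older rats both over all later weeks and over 4 and 6 weeks. Of the 4108 probe sets then tested, 240 and 89 were lower at 4 and 6 weeks. In older rats 28 of them were higher over all later weeks and 224 over 4 and 6 weeks. Without the young 4- and 6-week arrays, 1 gene was lower at 4 weeks, 1 at 6 weeks, and 4 over both against 0 time, and 3 were higher late against early. Over all probe sets these numbers were 91, 46, 309 and 594. Without the replicate block of age, 1 gene was lower at 4 weeks, and the other counts, 9 at 0.4 week and 7 late against 0 time among them, stayed within 1.5 times. Over all probe sets 106 were then lower at 4 weeks, 1459 at 0.4 week and 229 late against 0 time. The replicate numbers are the ages, so the block is the age. Called against its own control, Acadl passed in none (0 genes) of: floor of 1, offset of 50, median scaling, a mean signal of at least 200, the mean of all probe sets, and the next brightest probe set. The last 2 drew on an Acadl probe set averaging 19.0, under the floor of 20. For the others the cause was not tested.

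The methods name t tests without a threshold and give one for the software's change calls between arrays. At that one, the methods' t-test called 2, 2, 2, 0 and 0 genes lower at the 5 later times in order, among 261, 249, 97, 32 and 19 of all 8740 probe sets. Here the test compared log2 signals without pairing by age, with 1 array per age and time where the study had more. After Benjamini-Hochberg adjustment it called 2, 1, 0, 0 and 0, among 320, 119, 10, 1 and 0 probe sets in either direction.

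Changes of sign were limited to Cd36, Lpl, Acadvl and Hadha, and none of these values was called. The widest was that of Cd36, whose late direction depended on the probe set. Leaving out 1 age at a time, Cd36 ran from -0.53 to 0.084 and Lpl from -0.42 to 0.22 at 6 weeks, they ran from -0.54 to 0.15 and from -0.31 to 0.35 late against 0 time, and Acadvl ran from -0.031 to 0.27 and Hadha from -0.074 to 0.22 late against early; each sign turned without the adult rats. With median scaling Acadvl was -0.046 and Hadha -0.041 late against early. The mean of all probe sets gave Cd36 0.014 at 6 weeks and 0.12 late against 0 time, and Hadha -0.044 late against early. The next brightest probe set gave Cd36 0.33 and Lpl 0.011 at 6 weeks, and 0.52 and 0.029 late against 0 time. Without the young 4- and 6-week arrays Lpl was 0.037 late against 0 time. Of the other values of single genes and medians, 565 kept their direction and their side of the threshold, 66 lost the threshold and 14 gained it. Median scaling moved the median of all probe sets at 0.4 week to 0.0097, against -0.13 without it, and the calls over all probe sets to 1134 lower and 1439 higher, against 1493 and 1229; at 2 weeks they were 698 and 1002, against 904 and 829, and late against early 1219 and 839, against 901 and 1140. Signal limits the dim probe sets most, above all those of Cd36.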

Other observations

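Genes most like the 10 in their pattern were sought among 3394 probe sets with 1 symbol and a mean signal of at least 200. The mean log2 signal of the 10 genes over the 18 arrays had its highest Pearson r with Pfkm, the muscle phosphofructokinase (0.95), followed by Ech1, Aldoa, Mfn2 and Eci1 (0.94 each). Fabp3 alone had its highest r with the 2 probe sets of Ckmt2, the sarcomeric mitochondrial creatine kinase (0.95 and 0.93), with Pfkm (0.94), and with Hspb6 and Dnaja4 (0.93 each). These are descriptions over arrays that share time and age.

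Of the 80 genes of the wider pathway 6 were higher at 4 and 6 weeks than at 0 time, against 5.49% of all probe sets. Among them were Fabp4 and Fabp5, fatty acid binding proteins of fat and skin, by 1.11 and 0.98 on the log2 scale (limma adjusted p = 0.0391 and 0.0343), while Fabp3, the muscle form, had a change of -1.5. Pparg, a nuclear receptor of fat cells, was higher by 1.59 (adjusted p = 0.0183) on a probe set with a mean signal of 98.2. These genes were chosen after their values were seen.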
